A study of Arabidopsis thaliana with 4 samples.

Results

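In seedlings of Arabidopsis thaliana, 59 of 30361 gene models had the same deposited intensity on every array, 64046.8, which is the highest value in the data. They were chosen by those intensities, so their levels are a description with no test, and they amount to 0.194% of all models. The RNA came from TEKi plants and from wild-type plants, both of the accession Landsberg erecta (Ler), grown on plates of MS medium and harvested as whole seedlings on day 7. TEKi plants were of the T3 generation and carried amiTEK, an artificial microRNA against TEK, which encodes an AT-hook DNA-binding protein. Their label gives late flowering, and that of wild type gives normal flowering. The sources used here do not name the promoter of the microRNA, the number of independent lines or how many seedlings went into a sample. Each group had 2 single-colour Cy3 NimbleGen arrays, with RNA from separate cultures.

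An expression array reads transcript level as the fluorescence of labelled copies bound to probes, and that readout has an upper end above which more transcript adds no signal. In a green seedling much of the messenger RNA serves the building of chloroplasts: light-harvesting proteins that bind chlorophyll, the photosystems, carbon fixation, photorespiration and the protein synthesis that supplies them. Brightness also depends on how well a probe binds, so an intensity is not set here against that of another gene as an amount of transcript. The files do not record whether the shared highest value is the upper end of the scanner or was set when the arrays were normalized to each other. What they can show is which genes reached the upper end and on which arrays.

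Genes at this highest value, called the ceiling below, numbered 418 and 419 on TEKi 1 and TEKi 2, and 358 and 342 on wild type 1 and wild type 2, which is 1.13% to 1.38% of the genes of an array. Median intensity lay between 5639 and 5814. A second deposited form of the data, a value table, holds the same 4 columns but files the array of TEKi 1 under wild type 2 and that of wild type 2 under TEKi 1. Membership rests on all 4 arrays together, so the same 59 genes result whichever labels hold. With the value-table labels the groups are therefore the arrays filed as replicate 2 (TEKi) against those filed as replicate 1 (wild type), so with those labels the group and the number given in the array files cannot be told apart. Across genes, intensities of arrays with the same number correlated at r = 0.972 (TEKi 1 and wild type 1) and 0.974 (TEKi 2 and wild type 2), against 0.93 for the TEKi arrays and 0.934 for the wild-type arrays by the array files. With the value-table labels each same-numbered pair makes up a group. Which set of labels holds was not tested. Below, arrays are named by the array files, and tests, overlaps and lower bounds are given with both sets of labels.

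The labelled tissue was checked against marker genes. Of 6 genes of green tissue, RBCS1A, PSBO1, GAPB and RCA lay between 49080 and the ceiling on every array, whereas LHCB1.1 (CAB2) stayed at or under 636 and LHCB2.2 at or under 48. Of root genes, PYK10 and RCI3 lay between 49742 and the ceiling, and the root hair genes EXPA7 and SHV2 between 5916 and 16160. Markers of the tapetum and pollen coat stayed at or under 586. The 8 seed markers differed among themselves. CRA1 had 14517 and 1388 on the TEKi arrays and 15671 and 739 on the wild-type arrays. CRU3 had 6757 and 1564 on the TEKi arrays and 35363 and 1630 on the wild-type arrays. OLEO1 had 12713 and 7485 on the TEKi arrays and 14132 and 2210 on the wild-type arrays. SESA1 to SESA4 lay between 342 and 4727, and CRU2 stayed at or under 143. CRA1, CRU3 and OLEO1 were higher on both arrays numbered 1, which the value-table labels file as wild type. With the array-file labels TEKi and wild type overlapped for CRA1, CRU3, OLEO1, SESA1 and SESA2 and not for SESA3, SESA4 and CRU2. With the value-table labels the reverse held for each of these genes. No share of all genes was computed for such overlaps. In whole seedlings, fewer cells of a type and less RNA per cell cannot be told apart. None of these markers is among the 59 genes.

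The 59 genes fell into 11 functional groups, assigned from the deposited descriptions, RefSeq symbols and general knowledge after the genes were known. Of these, 3 groups with 16 genes hold the photosynthetic apparatus, pigment and cofactor synthesis, and plastid carbon, lipid and envelope functions. The other 43 genes spread over further metabolism, RNA and ribosomes, the cell wall, membranes and regulation, and some of these also encode plastid proteins. The counts depend on how the groups were drawn, and no share of all genes was computed for them. All 59 are protein-coding genes of the nucleus, and no group of the 11 held more than 7 genes.

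**Figure D1:**
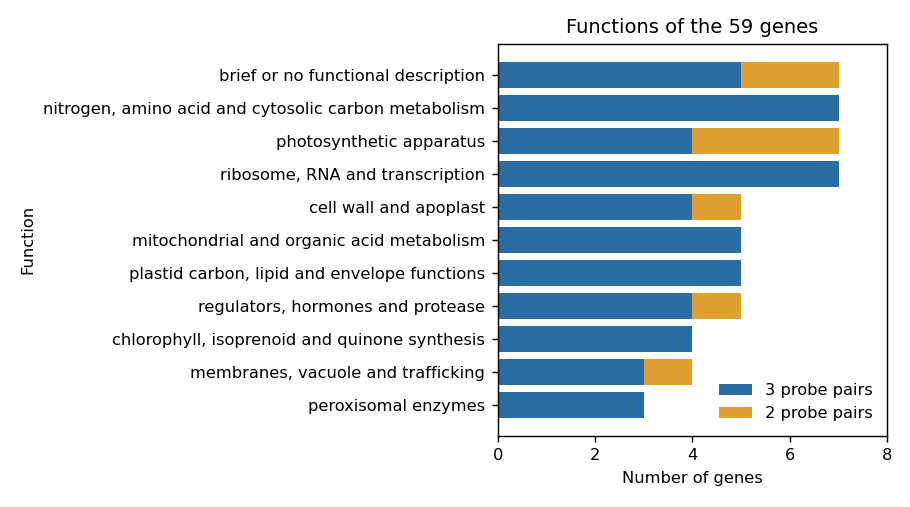
Number of ceiling genes (horizontal axis) in each of 11 functional groups (vertical axis), with bars split by the number of probe pairs behind each model. The photosynthetic apparatus, with 7 genes, has 3 on 2 probe pairs, while the 7 genes of nitrogen, amino acid and cytosolic carbon metabolism all have 3 probe pairs.

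In the photosynthetic apparatus, 7 genes had 64046.8 on all 4 arrays. LHCA2 (AT3G61470, chromosome 3, 22756635 to 22758256, genome release 6) and LHCA3 (AT1G61520, chromosome 1, 22703675 to 22705048) encode antenna proteins of photosystem I. LHCB1.5 (LHB1B2, AT2G34420, chromosome 2, 14529294 to 14530647) encodes a protein of the major antenna of photosystem II, and LHCB5 (CP26, AT4G10340, chromosome 4, 6408012 to 6409673) one of its minor antennae. PSAH-1 (AT3G16140, chromosome 3, 5468515 to 5469482) is a subunit of photosystem I, PSBY (AT1G67740, chromosome 1, 25397731 to 25398817) belongs to photosystem II, and HCF136 (AT5G23120, chromosome 5, 7778124 to 7780631) is a factor needed to assemble photosystem II. The set thus covers both photosystems and the antennae of each.

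Pigment and cofactor synthesis was represented by 4 genes. HEME1 (AT3G14930) encodes uroporphyrinogen decarboxylase, an enzyme of the pathway shared by haem and chlorophyll. CHLM (AT4G25080) encodes the magnesium-protoporphyrin IX methyltransferase of the chlorophyll branch. HDR (AT4G34350) catalyses the last step of the plastid pathway to isoprenoid precursors, and APG1 (AT3G63410) is the methyltransferase of plastoquinone and tocopherol synthesis.

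Plastid carbon, lipid and envelope functions accounted for 5 genes. APE2 (AT5G46110) is the translocator that exports triose phosphate from the chloroplast. AT5G58330 encodes NADP-dependent malate dehydrogenase, which moves reducing power out of the chloroplast as malate. Tic62 (AT3G18890) belongs to the protein import machinery of the inner envelope. PDH-E1 ALPHA (AT1G01090), a subunit of the plastid pyruvate dehydrogenase, supplies acetyl units for fatty acids, and SSI2 (AT2G43710) is the stearoyl carrier-protein desaturase that makes oleate.

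Other enzymes and metabolic functions made up 15 genes in 3 groups. The peroxisome contributed the catalase CAT3 (AT1G20620), AGT (AT2G13360), the aminotransferase that turns glyoxylate into glycine in photorespiration, and MFP2 (AT3G06860), a multifunctional enzyme of fatty acid beta-oxidation. Mitochondrial and organic acid metabolism contributed 5 genes: mMDH1 (malate dehydrogenase), NAD-ME1 (malic enzyme), IAR4 (a pyruvate dehydrogenase subunit), MPPBETA (a subunit of the peptidase that removes targeting peptides) and ACO1 (aconitase). Nitrogen, amino acid and cytosolic carbon metabolism contributed 7: NIA2 (nitrate reductase), MAT3 (S-adenosylmethionine synthetase), SAMDC (the decarboxylase that leads to polyamines), EDA9 (phosphoglycerate dehydrogenase of serine synthesis), IPMI2 (isopropylmalate isomerase), ALDH11A3 (non-phosphorylating glyceraldehyde-phosphate dehydrogenase) and GSTF9 (glutathione transferase). EDA9 and IPMI2 are known as plastid enzymes.

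Information processing accounted for 7 genes. NRPB1 (AT4G35800, chromosome 4, 16960661 to 16967896) encodes the largest subunit of RNA polymerase II, and ATARCA (RACK1A, AT1G18080) a scaffold protein bound to the ribosome. LARP6b and ATRBP45C encode RNA-binding proteins, ESP1 is named for an enhanced silencing phenotype, and AT3G13120 and AT4G01310 are described as structural constituents of the ribosome.

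Cell wall and apoplast genes numbered 5: POM1 (AT1G05850), a chitinase-like protein needed for normal cellulose, the proline-rich protein gene PRP4, the pectinesterase gene AT3G49220, BG_PPAP, a beta-glucanase associated with plasmodesmata, and the germin-like gene GER1. Membrane, vacuole and trafficking genes numbered 4: TUF (a subunit of the vacuolar proton pump), PCAP1 (a cation-binding protein of the plasma membrane), AT4G12650 (described as a transporter) and AT4G32760 (described as a protein transporter). The group of regulators, hormones and protease had 5: GLK2 (AT5G44190, chromosome 5, 17815596 to 17818050), a transcription factor that promotes chloroplast development, the homeobox gene HB5, DWF1 of brassinosteroid synthesis, the dormancy-associated gene DYL1 and the aspartic protease gene ASPG1. The remaining 7 have a brief or no functional description: AT1G20760 (calcium ion binding), AT1G62510 (lipid binding), emb2734 (lyase), AT1G26850, AT1G45688, AT1G69510 and AT4G15545. The deposited annotation calls 9 of the 59 an unknown protein, and for 5 of those RefSeq now gives a symbol.

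Membership was also counted in broader classes of the deposited descriptions. Of 23 genes described as chlorophyll binding, 3 were at the ceiling on all 4 arrays (13%), against 0.194% of all genes. Of 392 described as ribosomal proteins or constituents of the ribosome, 2 were (0.51%), and 51 reached it on at least 1 array (13%, against 2.82% of all genes). Both members were among the 39 ribosomal genes on 3 probe pairs. Of 1618 described as a transcription factor, GLK2 was the only member (0.0618%). None of 1367 described as a kinase and none of 2451 described as a transposon, transposase or retroelement was a member. The ceiling was reached on at least 1 array by 36 kinase genes (2.63%) and 7 genes of the transposon class (0.286%). Over all genes that share was 2.82%, close to the share of the kinases. These shares come from intensities that chose the genes and are given without a test. Membership is rare, at 0.194% of all genes, so counts of 2, 1 and 0 in the ribosomal, transcription factor and kinase classes say little. The classes also differed in probe number. On 3 probe pairs were 34.8% of the chlorophyll-binding, 9.95% of the ribosomal and 33.9% of the transcription factor genes. For kinases it was 47.6%, for the transposon class 13.4% and for all genes 37.2%. Membership was 0.452% among all models on 3 probe pairs and 0.0419% on 2, so the class shares are not at equal probe number.

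Lists of well-known abundant transcripts were drawn up from general knowledge, with earlier results of these data known. Their shares are therefore a description with no test. Of 73 nuclear genes of photosynthesis, 6 were at the ceiling on all 4 arrays (8.22%, against 0.194% of all genes) and 41 on at least 1 (56.2%, against 2.82% of all genes). By list, members numbered 4 of 21 light-harvesting genes, 1 of 13 photosystem I subunits and 1 of 11 photosystem II subunits. None of 9 genes of electron transport and ATP synthase, 14 of the Calvin cycle and carbonic anhydrase, or 5 for the RuBisCO small subunit and its activase was a member, although 7, 9 and 3 of them reached the ceiling on some array. RuBisCO small subunit genes came close: RBCS2B had 62542 and 64047 on the TEKi arrays and 64047 and 60085 on the wild-type arrays.

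Among the other lists, photorespiration and catalase had 1 member of 9 (AGT), redox enzymes 1 of 5 (CAT3), and the methionine and S-adenosylmethionine cycle 1 of 6 (MAT3), with all 6 of the last list at the ceiling on at least 1 array. No member came from 11 genes of translation elongation and initiation, of which 6 were at the ceiling on some array, 12 aquaporins (4 on some array), 18 actin and tubulin genes (5) or 7 genes of cytosolic glycolysis (4). The same held for 7 chaperones and cyclophilins (3), 5 metallothioneins (1), 6 lipid transfer proteins (1), 8 ubiquitin genes (1) and 2 glycine-rich RNA-binding proteins (1). These lists are short and 0.194% of all genes were members, so a count of 0 says little about them. The aquaporin, actin and tubulin, chaperone, metallothionein, ubiquitin and glycine-rich lists also have no gene on 3 probe pairs, and of all models on 2 probe pairs 0.0419% were members. Of the marker lists, 1 of 4 root genes and none of 8 seed or 2 tapetum genes reached it on any array.

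In the light-harvesting family, some genes were at the ceiling throughout and others near the bottom of the scale. LHCB1.5 was at the ceiling on all 4 arrays, and its relative CAB1 was there on 3 and at 62959 on wild type 1. LHB1B1 (LHCB1.4) had 61640 and 64027 on the TEKi arrays and 64047 and 62416 on the wild-type arrays. CAB3 lay lower, at 50452 and 59025 on the TEKi arrays and 60841 and 52016 on the wild-type arrays, and the fifth gene of this group, CAB2, had 301 and 626 on the TEKi arrays and 96 and 636 on the wild-type arrays. The LHCB1 genes are close copies of each other, so how their probes share transcripts is uncertain. LHCB2.1 was at the ceiling on 3 arrays and at 54170 on wild type 2, while LHCB2.2 did not exceed 48. LHCB4.1 showed a level of its own, 63841 on TEKi 2, wild type 1 and wild type 2 and 57707 on TEKi 1. In this family, 4 genes thus have no measured variation and the other 17 do. Whether probes or transcripts differ between these genes was not tested.

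**Figure D2:**
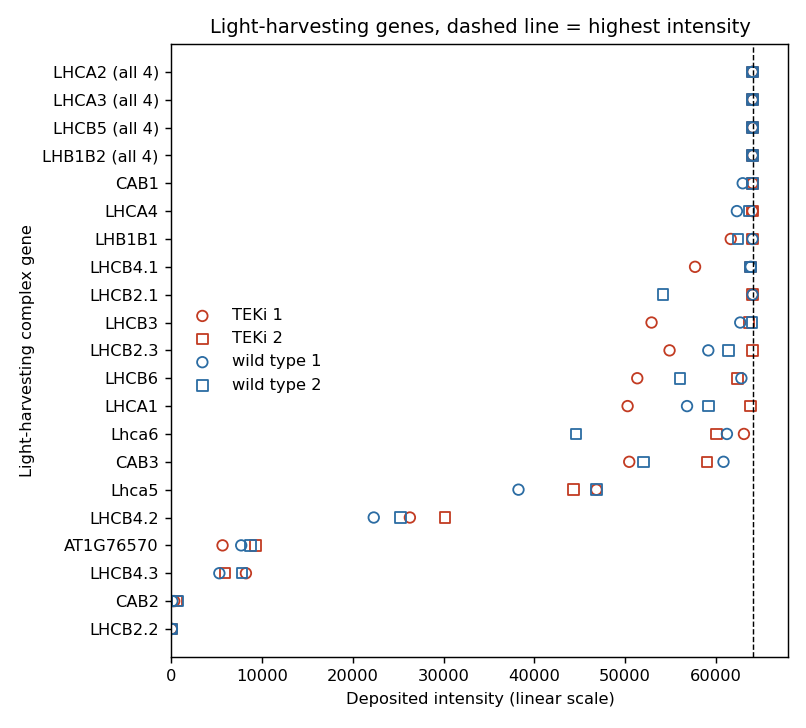
Deposited intensity on a linear scale (horizontal axis) of 21 light-harvesting genes (vertical axis) on 2 TEKi arrays (red) and 2 wild-type arrays (blue), circles for replicate 1 and squares for replicate 2. Points of the 4 genes marked "all 4" coincide on the dashed line at 64046.8, and CAB2 and LHCB2.2 lie near 0.

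Relatives of other ceiling genes also fell short of it. CAT3 was at the ceiling throughout, and CAT2, the catalase of leaf photorespiration, had 63901 and 57470 on the TEKi arrays and 63887 and 62189 on the wild-type arrays. PSAH2, a second gene for the subunit encoded by PSAH-1, had 54772 and 62740 on the TEKi arrays and 63898 and 62411 on the wild-type arrays. Beside MAT3, SAM1 had 62880 and 64047 on the TEKi arrays and 57587 and 64047 on the wild-type arrays, and MTO3 had 56435 and 61193 on the TEKi arrays and 64047 and 60893 on the wild-type arrays. SAM-2 had 64047 and 63243 on the TEKi arrays and 62960 and 53831 on the wild-type arrays. With the array-file labels TEKi and wild type overlapped for CAT2, PSAH2, SAM1 and MTO3 and did not overlap for SAM-2. With the value-table labels they overlapped for PSAH2, MTO3 and SAM-2 and did not overlap for CAT2 and SAM1. None of these 5 genes passed limma's test with either set of labels, the smallest adjusted p being 0.835. GLK1 (GPRI1), the partner of GLK2, was at the ceiling on 3 arrays and had 48387 on TEKi 1.

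A property the rule did not use is the number of probe pairs behind a model. Of the 59 genes, 51 (86.4%) had 3 probe pairs and 8 had 2, whereas 37.2% of all models had 3. Among models on 3 probe pairs 0.452% were at the ceiling on all arrays, and among those on 2 probe pairs 0.0419%. The share with 3 probe pairs was 36.5% for genes never at the ceiling, 55.1% for those on 1 array, 46.8% on 2 arrays and 76.5% on 3 arrays. The 8 genes on 2 probe pairs were LHCB1.5, PSAH-1, PSBY, PCAP1, PRP4, ASPG1, AT1G62510 and AT1G69510. Within the photosynthesis lists, 3 of 20 genes with 3 probe pairs were members (15%) and 3 of 53 with 2 (5.66%). The part of the probe number in membership was not tested.

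**Figure D3:**
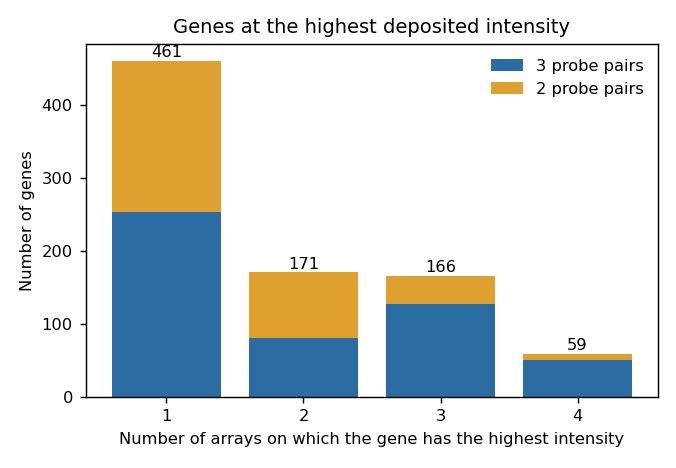
Number of genes (vertical axis) at the highest intensity on exactly 1, 2, 3 or 4 arrays (horizontal axis), split by probe pairs per model. The counts are 461, 171, 166 and 59, and 51 of the last 59 have 3 probe pairs.

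Gene models of the 59 were 821 to 7236 bases long, with a median of 2390, against 1925 for all models. Models on 3 probe pairs were longer in general, with a median of 2502 bases, and the 51 ceiling genes with 3 probe pairs had a median of 2508. By chromosome, 17, 9, 12, 14 and 7 of the 59 lay on chromosomes 1 to 5, between 0.102% (chromosome 5) and 0.299% (chromosome 4) of the genes there. None of the 59 is a model that stands for several loci.

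Genes of the chloroplast genome often reached the ceiling on some array. Of its 67 measured genes, 23 did so on at least 1 array (34.3%, against 2.82% of all genes). None did so on all 4, where 0.194% of all genes did. Because these genes reached the ceiling on some array far more often, the share of all genes does not tell how many members to expect. The absence was not tested, and no conclusion is drawn from it. The 23 genes were spread as 10 on 1 array, 5 on 2 and 8 on 3. With the array-file labels, 14 and 14 of them were at the ceiling on the TEKi arrays and 9 and 7 on the wild-type arrays. With the value-table labels the counts overlap, at 7 and 14 on the arrays labelled TEKi and 9 and 14 on those labelled wild type. Of 94 genes of the mitochondrial genome, 1 reached it on any array.

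The edge of the set was sharp in rule and shallow in value. Just outside it were 166 genes at the ceiling on exactly 3 arrays. The nearest of these were MEE14, at 63977 on TEKi 1, CER3, a wax synthesis gene at 63972 on wild type 2, DIN10 at 63961 and FAD6, a plastid fatty acid desaturase, at 63959, both on wild type 2. The farthest were OSM34, an osmotin-like gene at 41621 on TEKi 1, the ribosomal gene AT1G57860 at 44334 on wild type 1 and the cellulase gene GH9A1 (KORRIGAN) at 46025 on wild type 2. Over the 166, the remaining array had a median of 60650, so the ceiling exceeded it by 1.056-fold in the median and by 1.54-fold at most.

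TEKi 1 set the edge more than the other arrays. It was the array that kept 83 of the 166 genes out, against 3 for TEKi 2, 42 for wild type 1 and 38 for wild type 2. TEKi 1 was also the only array at the ceiling for 209 genes, against 68 for TEKi 2, 108 for wild type 1 and 76 for wild type 2. Without TEKi 1, 142 genes would be at the ceiling on all arrays left. Without wild type 1 the number is 101, without wild type 2 it is 97, and without TEKi 2 it is 62.

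**Figure D4:**
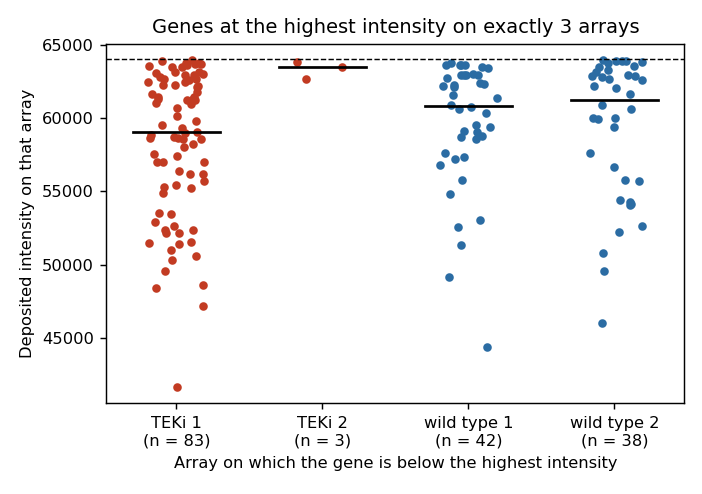
Deposited intensity (vertical axis) of the 166 genes at the highest intensity on exactly 3 arrays, plotted on the array where they were lower (horizontal axis), with black lines at medians and the dashed line at 64046.8. The array below the ceiling was TEKi 1 for 83 genes, with a lowest value of 41621, and TEKi 2 for 3.

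The spread over the arrays narrowed towards the ceiling. The range over the arrays, as highest over lowest intensity, had a median of 1.57-fold for genes with a mean of 4000 to 16000, 1.30-fold for 32000 to 48000, 1.18-fold for 56000 to 60000 and 1.02-fold for 63000 to 64046. For the last class the largest range was 1.07-fold. Near the top this is arithmetic, since no gene with such a mean can have a wider range below a fixed top. The narrow range there therefore does not measure the variation that the ceiling hides. For the 59 genes the range is exactly 1, so the files hold no value for the order among them, for any level above the ceiling or for how much it varied between cultures.

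**Figure D5:**
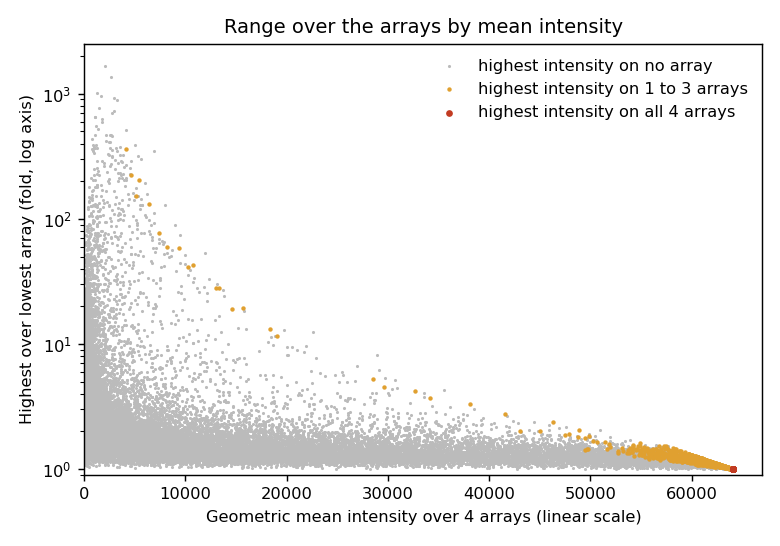
Highest over lowest intensity of the 4 arrays (vertical axis, log scale) against the geometric mean intensity (horizontal axis, linear) for 30352 genes, coloured by the number of arrays at the highest intensity. The range narrows towards the right-hand end, where the 59 genes (red) coincide at a range of 1.

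Identical values were not confined to the top. Another 20 genes had the same intensity on all 4 arrays at levels below the ceiling, from 24851 to 63928, with 12 of them above 60000, and all 20 had 3 probe pairs. The following were named after their values were seen. APX1, the cytosolic ascorbate peroxidase, was at 63638 on every array, cICDH, an isocitrate dehydrogenase, at 63928, and PPC2, a phosphoenolpyruvate carboxylase, at 63774. Some are relatives or pathway partners of ceiling genes: AIM1, a relative of MFP2 in beta-oxidation, was at 59663, and GUN4, a regulator of chlorophyll synthesis, at 61870. For these genes too a difference between groups of 0 is fixed by the values. A further 71 genes had the same value on exactly 3 arrays, below the ceiling.

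No contrast between TEKi and wild type is possible for the 59 genes, whose log2 difference is 0 by the rule. In the fit by limma over 30352 genes, with Benjamini-Hochberg adjustment, 0 of the 59 were called with the array-file labels, where 0% of all genes were called and 1398 had an unadjusted p under 0.05, none of the 59 among them. With the value-table labels, which set replicate number 2 of the array files against number 1, 0 of the 59 were called and 2.22% of all genes were. Both readings follow from the rule and show nothing about the transcripts. Dividing each array by its own median would give all 59 a log2 difference of -0.034 (63126 and 63450 on the TEKi arrays against 64578 and 65053 on the wild-type arrays), a value that comes from the scaling alone.

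Genes at the ceiling in 1 group only have a difference with a lower bound. With the array-file labels, 43 genes were at the ceiling on both TEKi arrays and below it on both wild-type arrays (0.142% of all genes), and 18 the other way round (0.0593%). FUG1, a translation initiation factor gene, was at the ceiling on both TEKi arrays, against 61596 and 42649 on the wild-type arrays, at least 1.25-fold higher in TEKi. PRIN2 had 52999 and 49096 on the TEKi arrays against the ceiling on both wild-type arrays, at least 1.26-fold lower in TEKi. These are the largest bounds in either direction with those labels, none passed the test, and FUG1 and PRIN2 are not among the 59. With the value-table labels neither gene has a bound, and the groups overlap. FUG1 then had 42649 and 64047 in TEKi against 61596 and 64047 in wild type. PRIN2 had 64047 and 49096 in TEKi against 64047 and 52999 in wild type.

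With the value-table labels, 58 genes were at the ceiling in the arrays labelled TEKi alone (0.191%) and 21 in those labelled wild type alone (0.0692%). The largest bound was that of AT3G30670, of unknown function, at 3327 and 2289 on the arrays labelled TEKi against the ceiling on both labelled wild type, at least 23.2-fold lower in TEKi (limma, adjusted p = 0.0202). In the array files the arrays at the ceiling are both replicates numbered 1, 1 of each group, and with those labels TEKi and wild type overlapped. The pseudogene AT4G06622 followed with 12279 and 13143 against the ceiling, at least 5.04-fold lower (limma, adjusted p = 0.0248), with the same split by number. For both genes the arrays labelled wild type have identical values only because of the ceiling, which hides their spread. Both genes were also picked by the values that were tested. Their adjusted p-values therefore do not measure the variation between replicates, and no conclusion is drawn from them. All other bounds with the value-table labels were at most 1.36-fold, the value of PHOT2, the blue-light receptor gene. With the array-file labels TEKi and wild type overlapped for PHOT2.

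The 59 genes also entered the tests of others, because limma estimates a common spread from all genes; theirs is 0, which limma offsets slightly from 0 before the fit is moderated. With the value-table labels 674 genes were called when all 30352 genes were fitted, 741 when the 59 were left out and 770 when all genes at the ceiling on any array were left out. With the array-file labels the count was 0 in all 3 cases. Genes at the ceiling on 1, 2 or 3 arrays gave 16, 2 and 0 of the 674 calls, and genes never at the ceiling gave 656. Leaving genes out also shortens the list of p-values that is adjusted. The parts of the common spread and of the list length in these counts were not tested.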

How the data were processed

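Whole-seedling RNA of 2 TEKi and 2 wild-type samples was measured on NimbleGen arrays. Intensity on a linear scale was deposited by the authors for 30361 gene models per array. RMA, which corrects background, normalizes arrays and summarises probes, is named in the submitters' processing notes, without version or settings. No scanner saturation flags, detection calls or probe values were used. Per the file headers' annotation, positions are those of genome release 6, and symbols come from RefSeq (TAIR10.1), which matched 29976 loci and all 59 genes.

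The value table, also deposited as linear intensity, matched the arrays column by column within 0.0001. For the comparison of groups, 9 genes with an exact 0 were left out and log2 intensity was fitted with limma 3.58.1 (lmFit, eBayes, 2-sided) in R 4.3.3, with a threshold of adjusted p = 0.05. The procedure was checked on simulated data, with large changes set in 1500 genes and spreads taken with the value-table labels. That check does not show which smaller changes the fit with the array-file labels would find. Ribosomal protein genes were found by descriptions that name a ribosomal protein or a structural constituent of the ribosome, the second wording added after the descriptions were read. A lower bound is the ceiling over the geometric mean of the other group.

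The genes described and the lists were chosen with earlier results of these data known. By the rule for named genes, any of the 59 may be named, with up to 10 nearest and 5 farthest genes at the ceiling on 3 arrays, family members from the lists, and the 5 largest bounds in each direction. The number of arrays limits the precision. Alternatives were looser ceilings, leaving out each array, the value table, other scalings, filters, a mean-variance trend, a pseudocount of 50 and a replicate block.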

Additional observations from a re-analysis of the deposited data

How the results depend on the processing

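The number of genes at the ceiling on all 4 arrays (59) was 102 when values within 1% of the ceiling counted and 605 within 10%, ran from 62 to 142 without single arrays, was 59 in the value table and 79 when any value identical on all 4 arrays counted, a setting chosen after seeing the data. Photosynthesis genes among them (6) numbered 7 within 1%, 32 within 10% and 6 to 9 without single arrays, and ribosomal genes (2) numbered 2, 35 and 2 to 7. The members' log2 difference of 0 became -0.034 with median centring, by the construction of that scaling, and stayed 0 with quantile normalization, the value-table labels and without each single array. The count of genes called, 0 with limma, was 674 with the value-table labels. It was 0 with the other scalings, the filters, a mean-variance trend, a pseudocount of 50 and a replicate block. With the value-table labels the groups are also the replicate numbers of the array files, and which set of labels holds was not tested. With the array-file labels, same-numbered arrays deviated together from their group means (correlation 0.65 across genes). The labels say nothing of a shared batch and there are only 2 pairs, so the numbers were not taken as pairing. With the value-table labels these pairs are the 2 arrays of a group, so the 0.65 does not describe pairing there. Signal above the ceiling is not recorded in these values, and that limit holds under all settings.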
